A study of Homo sapiens with 4 samples.

Results

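The mitochondrial ribosomal protein genes, nuclear genes whose symbols begin with MRPL or MRPS, were followed in Daoy cells with and without knockdown of PELP1. Rows were chosen by symbol alone (MRPL or MRPS, a number and, for some, a letter A to C), which gave 76 of 23228 gene rows. Daoy is an established human medulloblastoma line. One group of 2 libraries came from cells carrying a lentiviral control shRNA vector and the other, also of 2 libraries, from cells carrying a lentiviral PELP1 shRNA vector. Both were stable populations grown in DMEM with serum, and the labels name neither the shRNA sequences nor separate cultures or clones behind the duplicates. RNA sequencing reads were counted per gene, with 24052542 to 29221640 counts in genes per library. Nothing says that the duplicates came from separate cultures, so the p-values reflect how far duplicate libraries differed, and that spread may be technical alone.

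Mitochondria hold their own ribosomes, which translate the few mRNAs of the mitochondrial genome into core subunits of the respiratory chain. The RNA of that ribosome is encoded in mitochondrial DNA, while every protein of it is encoded in the nucleus, made in the cytosol and imported. Some of these proteins descend from bacterial ribosomal proteins and others exist in mitochondria only. PELP1, the target of the shRNA, is a nuclear receptor coregulator that also belongs to a nucleolar complex acting on the cytosolic large ribosomal subunit.

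PELP1 stood at 168.2 and 185.2 CPM (counts scaled to the TMM-adjusted size of each library) with control shRNA, against 55.6 and 49.7 CPM in the knockdown, 29.8% of control (log2 fold change −1.75 ± 0.05, SE; edgeR quasi-likelihood test, FDR = 1.54e-33). Of markers of the granule cell lineage from which medulloblastoma can arise, ZIC1, ZIC2, PAX6 and GLI2 had at least 15.2 CPM in every library, while ATOH1, BARHL1 and NEUROD1 had at most 6 counts in any. Of the markers present, GLI2 fell to 61.2% of control, and PAX6 and ZIC2 rose to 145% and 120%. PTPRC, a leukocyte marker, had 5 to 9 counts per library and the hepatocyte gene ALB had 0. Of the endothelial genes, PECAM1 rose from 11 and 7 counts to 57 and 49 (edgeR, FDR = 5.26e-08), whereas CDH5 fell from 21 and 15 counts to 8 and 8 (edgeR, FDR = 0.00701). The part of these marker changes in the results was not tested. The astrocyte gene GFAP stood at 37.2 and 11.8 CPM in control libraries 1 and 2 and at 27.8 and 10.4 CPM in PELP1 shRNA libraries 1 and 2, so it differed more between the duplicates than between the groups.

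The genes moved in both directions and by small amounts. Of 76 rows, 75 had enough counts to be tested. In the comparison of the knockdown with the control, 22 rose, 18 fell and 35 did not pass the threshold, a false discovery rate (FDR) of 0.05 over all 14972 genes tested. Over all those genes 28.6% were called higher and 29.5% lower, 58.1% in all, so the called share of the mitochondrial ribosomal protein genes was near or below the background. Among the 8570 genes within the same range of mean level (12.7 to 216.1 CPM) the called share was 64%, with 30% higher and 34% lower. The median log2 fold change of the 75 genes was 0.057, against 0.002 for all genes tested, and their median absolute log2 fold change was 0.143, against 0.202 for the genes of the same range. The groups did not overlap in 33 genes that were higher and 24 that were lower. Over all genes tested 39% were higher and 38.7% lower without overlap, 77.7% in all.

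The split of calls depended on scaling. With library size alone 40 rose and 11 fell, and with upper-quartile factors 36 rose and 14 fell, while over all genes the share of higher calls moved from 49.1% to 63.2% and 57.9%. All 22 genes called higher and 11 of the 18 called lower were called in the same direction under each of the 3 other scalings. The assumed replicate spread also mattered. When a biological coefficient of variation (BCV) of 10% was assumed in place of the 2.99% estimated from the duplicates, in edgeR's likelihood ratio test, 3 genes remained higher (MRPL46, MRPS31 and MRPS11) and 4 remained lower (MRPS2, MRPL15, MRPS30 and MRPL39), and at 20% none was called. With the estimated spread that test called 23 higher and 18 lower, an alternative chosen after seeing the data.

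**Figure D1:**
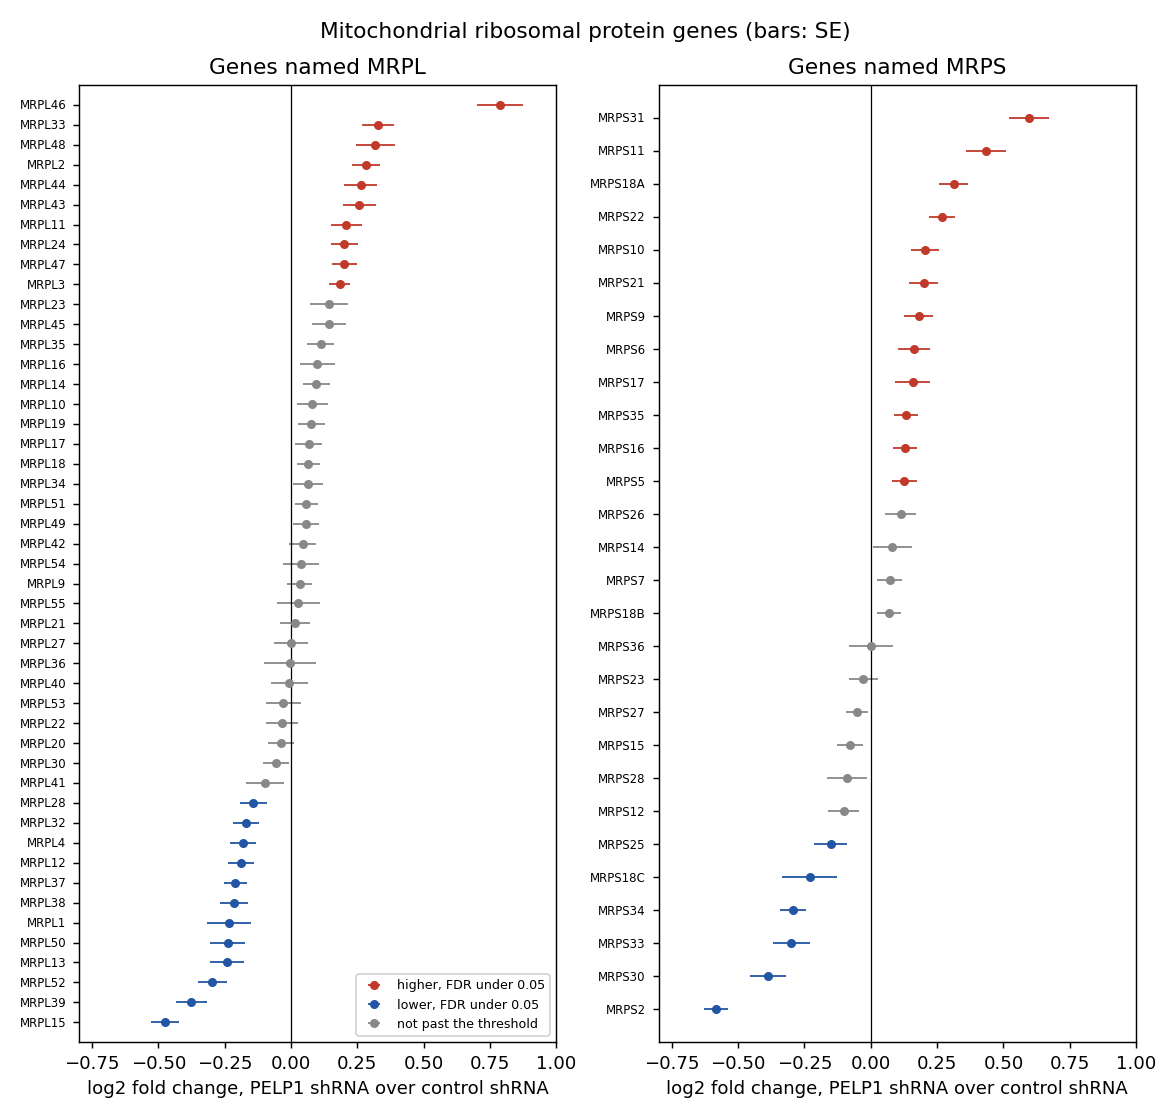
Log2 fold change (PELP1 shRNA over control shRNA) with its standard error for each of the 75 tested genes, those named MRPL on the left and those named MRPS on the right, coloured by call. MRPL46 stands highest at 0.79 and MRPS2 lowest at −0.58, and 35 genes in grey did not pass the threshold.

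The summed TMM-scaled level of the 76 genes was 4919 and 4888 CPM with control shRNA, against 4942 and 4971 CPM with PELP1 shRNA. As a share of raw counts in genes they made up 0.478% and 0.472% in the control and 0.510% and 0.512% in the knockdown. On both scales the knockdown libraries lay above the control libraries, by a margin that depended on the scale. In bulk RNA a change in the number of cells of a state and a change in RNA per cell cannot be told apart.

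The largest rise was that of MRPL46, a protein of the large subunit that sits in its central protuberance and has no bacterial counterpart. It stood at 14.2 and 13.6 CPM with control shRNA, against 23.1 and 24.9 CPM with PELP1 shRNA. Both knockdown values lay above both control values, at 173% of control (log2 fold change 0.79 ± 0.09, SE; edgeR, FDR = 5.91e-12). It was also the only one of the 75 genes that passed a test against a 1.5-fold change (edgeR glmTreat, FDR = 0.031), a test that called 4.74% of all genes higher and 4.9% lower, 9.63% in all. That call was lost with DESeq2 and limma-voom, with an assumed BCV of 10% or 20%, and without control replicate 2 or PELP1 shRNA replicate 2. No gene passed it in the lower direction, nor did any at an unadjusted p under 0.05 in edgeR. The same test by DESeq2 or limma-voom gave 0.

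The gene with the third largest rise, MRPS11, is the head-to-head neighbour of MRPL46. MRPS11 encodes a small subunit protein with a bacterial counterpart and lies on the plus strand of chromosome 15 (hg19, 89010684 to 89024007), while MRPL46 lies on the minus strand (89002708 to 89010621). One gene of each ribosomal subunit is thus read outward from an interval of 62 bases. MRPS11 had 22.5 and 23.6 CPM in the control and 31.8 and 30.6 CPM in the knockdown. The groups did not overlap, at 135% of control (log2 fold change 0.43 ± 0.07, SE; edgeR, FDR = 9.13e-07). MRPL46 shares 724 exonic bases with another gene on its strand, and MRPS11 shares 516 with one on the other strand, so a part of the reads could belong to those.

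The intervals between 3 pairs of start sites are shown because both genes of each pair passed the threshold in the same direction and no annotated exon lies between them. Each is written on the plus strand, with the minus-strand gene to its left and the plus-strand gene to its right. Capitals mark a match to one of the promoter motifs searched (the ETS core CCGGAAG on either strand, or the GC box GGGCGG), and the first interval holds none of them.
MRPL46/MRPS11 (chr15:89010622-89010683): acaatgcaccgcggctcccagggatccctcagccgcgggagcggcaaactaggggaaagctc
MRPL47/NDUFB5 (chr3:179322438-179322477): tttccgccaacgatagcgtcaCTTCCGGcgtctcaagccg
MRPL50/ZNF189 (chr9:104160901-104161132): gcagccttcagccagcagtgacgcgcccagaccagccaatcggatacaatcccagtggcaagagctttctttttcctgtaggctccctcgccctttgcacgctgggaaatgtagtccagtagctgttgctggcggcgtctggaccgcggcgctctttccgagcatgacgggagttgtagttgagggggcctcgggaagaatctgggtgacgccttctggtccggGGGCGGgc

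MRPL46/MRPS11 was 1 of 15 pairs in which a mitochondrial ribosomal protein gene and a protein-coding neighbour with a count row run apart from starts that do not overlap and lie within 1000 bases of each other. In 4 pairs both genes passed the threshold, and in those 4 they moved the same way. With 58.1% of all genes tested called, unrelated genes can also be called together. Whether neighbours agree more often than unrelated genes was not tested. In 4 other pairs 1 of the genes passed, and in 7 neither did. In the pairs not called together, the signs of the log2 fold changes differed in MRPL18/TCP1, MRPL21/IGHMBP2, MRPL30/MITD1, MRPL36/NDUFS6, MRPL49/FAU, MRPL54/APBA3 and MRPS12/SARS2. They agreed in MRPL10/LRRC46, MRPL52/SLC7A7 and MRPS18C/HELQ, and MRPL27 of MRPL27/EME1 stood at 0. Of the pairs, 14 had their starts within 300 bases, with the same 4 called together. Another 10 pairs run apart from annotated 5′ ends that overlap, by up to 773 bases. In both counts a start is the outermost annotated end of the gene over all its transcripts. The start used in these cells can lie elsewhere, so some pairs, among them MRPL11/PELI3, may not share a start region. Of the 9 of these in which both genes were tested, both passed in the same direction in 3 (MRPL11/PELI3, MRPL43/C10orf2 and MRPS34/EME2), 1 gene passed in 3 and neither did in 3. Their overlapping reads cannot be assigned to a gene without a known strand setting.

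The second pair that rose joins MRPL47, the counterpart of a bacterial protein at the exit of the peptide tunnel, with NDUFB5, which encodes a subunit of respiratory complex I. MRPL47 had 107.9 and 95.8 CPM in the control and 114.1 and 119.9 CPM in the knockdown (log2 fold change 0.20 ± 0.05, SE; edgeR, FDR = 0.000322). NDUFB5 rose by more, from 89.4 and 84.9 CPM to 113.7 and 122 CPM (0.43 ± 0.05, SE; edgeR, FDR = 4.56e-12). MRPL47 missed the threshold without control replicate 2.

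Of the pairs that fell, MRPL32 (log2 fold change −0.17) neighbours the proteasome subunit gene PSMA2 (−0.18), and MRPL50 (−0.24) neighbours the zinc finger gene ZNF189 (−0.19). Both MRPL32 and MRPL50 missed the threshold without control replicate 1, and MRPL50 also without PELP1 shRNA replicate 2. Examples from the other 11 pairs are MRPL49/FAU and MRPL18/TCP1. MRPL49 stood at 0.06 (edgeR, FDR = 0.311), whereas FAU, which encodes the cytosolic ribosomal protein eS30 as a fusion and starts 6 bases away, fell by 0.37 (edgeR, FDR = 8.06e-05). MRPL18 (0.07) and the chaperonin gene TCP1 (−0.07), 109 bases apart, both missed the threshold.

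**Figure D2:**
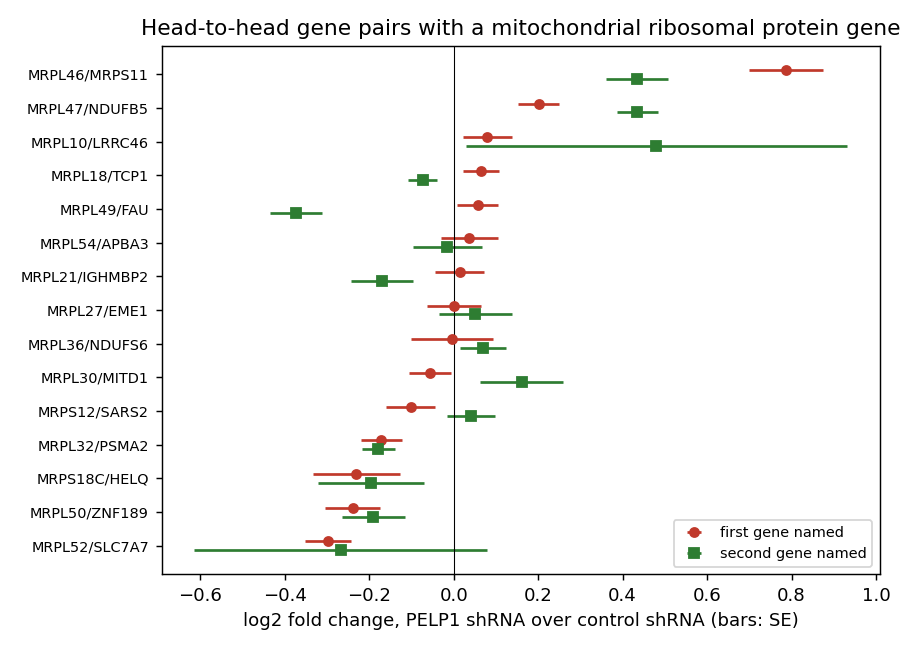
Log2 fold changes (PELP1 shRNA over control shRNA) with standard errors for both genes of the 15 head-to-head pairs, the first gene as a circle and the second as a square. Both genes of MRPL46/MRPS11 and MRPL47/NDUFB5 lie above 0.2 and both of MRPL32/PSMA2 and MRPL50/ZNF189 below −0.17, while MRPL49 and FAU lie on opposite sides of 0.

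Among the large subunit proteins with a bacterial counterpart, 29 were tested, of which 6 rose and 7 fell (median log2 fold change 0.064). Over all genes tested 28.6% were called higher and 29.5% lower, which is the background for each class count below. The risers were MRPL2, MRPL3, MRPL11, MRPL24, MRPL33 and MRPL47. MRPL33 changed most, from 45.2 and 43.6 CPM to 52.7 and 58.9 CPM (0.33 ± 0.06, SE; edgeR, FDR = 3.59e-06). MRPL2, which binds the RNA next to the peptidyl transferase centre, rose from 59.0 and 56.7 CPM to 71.5 and 69.1 CPM. The groups overlapped in neither gene.

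MRPL15 fell most in that class, from 77.3 and 76.2 CPM to 55.3 and 55.2 CPM. The duplicates were nearly equal, and the knockdown stood at 72% of control (−0.47 ± 0.05, SE; edgeR, FDR = 9.59e-12). The others that fell were MRPL1, MRPL4, MRPL12, MRPL13, MRPL28 and MRPL32, at 84.6% to 90.6% of control. Of these, the calls of MRPL1, MRPL4, MRPL12, MRPL28 and MRPL32 were lost when library size alone set the scale. Those of MRPL1 and MRPL28 were also lost with upper-quartile factors and with DESeq2. With a library left out, MRPL1 was lost without replicate 1 of either group, MRPL4 without PELP1 shRNA replicate 2, and MRPL28 in each case but control replicate 1.

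The stalk of the large subunit, which recruits translation factors, holds MRPL10, MRPL11, MRPL12, MRPL53 and MRPL54. MRPL12, which forms the flexible arms of the stalk and is also known to bind mitochondrial RNA polymerase, fell from 99.0 and 104 CPM to 93.3 and 84.8 CPM (−0.19 ± 0.05, SE; edgeR, FDR = 0.000784). Its neighbour in the stalk, MRPL11, went the other way, from 57.1 and 52.0 CPM to 60.9 and 65.2 CPM (0.21 ± 0.06, SE; edgeR, FDR = 0.0013). MRPL10, the base to which MRPL12 binds, was at 0.08, MRPL53 at −0.03 and MRPL54 at 0.04, none past the threshold. Both calls were lost without PELP1 shRNA replicate 2, and that of MRPL11 also without control replicate 2. Of the exons of MRPL12, 701 bases are shared with another gene on the same strand.

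Large subunit proteins that exist only in mitochondria numbered 18, of which 4 rose and 6 fell (median 0.016). Besides MRPL46, MRPL48 of the central protuberance rose (25.1 and 25 CPM to 30.1 and 32.4 CPM, 125% of control), as did MRPL43 and MRPL44 (119% and 120%). MRPL44 resembles an RNase III. Its call was lost without PELP1 shRNA replicate 2.

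MRPL39 fell from 57.3 and 55.3 CPM to 43.5 and 43.3 CPM, 77.0% of control (−0.38 ± 0.06, SE; edgeR, FDR = 1.03e-07). MRPS30, named as a small subunit protein but found in the large subunit in structures of the ribosome, fell from 41.9 and 38.5 CPM to 29.6 and 31.9 CPM, 76.5% of control (edgeR, FDR = 1.49e-06). In neither gene did the groups overlap. MRPL37, MRPL38, MRPL50 and MRPL52 also fell, to between 81.4% and 86.5% of control.

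In the small subunit, 8 of the 15 tested proteins with a bacterial counterpart rose and 2, MRPS2 and MRPS18C, fell (median 0.126). The shares over all genes tested were 28.6% higher and 29.5% lower. MRPS18A and MRPS18B were counted apart from this class. Apart from MRPS11 the rises were slight: MRPS5, MRPS6, MRPS9, MRPS10, MRPS16, MRPS17 and MRPS21 reached 109% to 115% of control. Of those, MRPS5, MRPS6, MRPS16 and MRPS17 missed the threshold with DESeq2. With a library left out, MRPS5 and MRPS17 were lost in every case, MRPS6 and MRPS9 without replicate 2 of either group, and MRPS16 and MRPS21 without PELP1 shRNA replicate 2.

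MRPS2, also of this class, had the largest fall of all 75 genes. It lies on chromosome 9 (hg19, 138391830 to 138396519). Of its exonic bases over all annotated transcripts, 14.3% overlap genes on the opposite strand. The level of MRPS2 was 133.8 and 137.9 CPM with control shRNA, against 93.1 and 88.0 CPM with PELP1 shRNA. The knockdown libraries were both far below the control libraries, at 66.7% of control (−0.58 ± 0.05, SE; edgeR, FDR = 1.2e-17). The log2 fold change stayed between −0.494 and −0.625 in the scalings, filters, tests and left-out libraries tried.

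**Figure D3:**
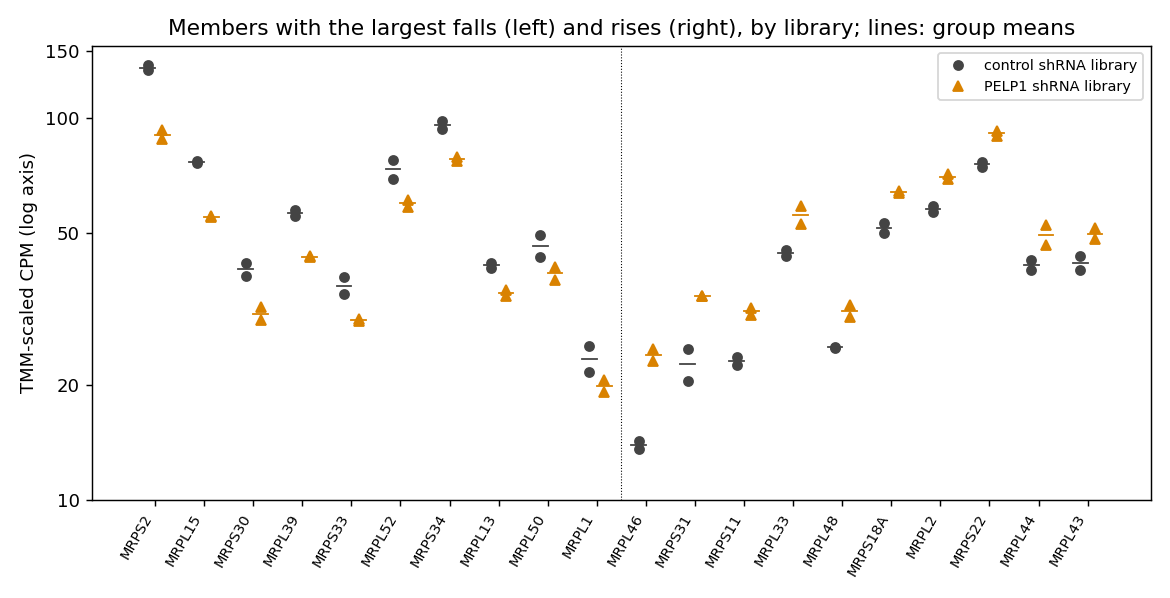
TMM-scaled CPM on a log axis in each library for the 10 genes with the largest falls (left of the dotted line) and the 10 with the largest rises (right), control libraries as circles, PELP1 shRNA libraries as triangles, group means as lines. MRPS2 drops from 133.8 and 137.9 to 93.1 and 88.0 CPM, MRPL46 climbs from 14.2 and 13.6 to 23.1 and 24.9 CPM, and the groups overlap in none of the 20 genes, as the choice required.

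Small subunit proteins found only in mitochondria split evenly. Rises and falls numbered 3 each among 9 tested, and their median was −0.028. MRPS31 rose from 24.8 and 20.5 CPM to 34.1 and 34.2 CPM, 151% of control (0.60 ± 0.08, SE; edgeR, FDR = 6.02e-10). The 2 control values differed from each other more than the knockdown values did, and the log2 fold change ran from 0.46 without control replicate 2 to 0.73 without control replicate 1. MRPS31 has 5 pseudogenes in the annotation, and 35 of the 76 genes have at least 1 named after them. Reads that match a copy equally well are missing from the counts of such genes, and their number was not measured.

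MRPS22 rose to 120% of control and MRPS35 to 110%. MRPS34 fell from 93.8 and 98.3 CPM to 79.3 and 77.3 CPM, MRPS33 to 81.3% of control and MRPS25 to 90.1%. MRPS25 and MRPS35 were lost with DESeq2 and without PELP1 shRNA replicate 1, MRPS25 also without control replicate 2 and MRPS35 also without control replicate 1. Over all annotated transcripts, exons of MRPS22 and MRPS25 overlap genes on the opposite strand over 42.8% and 39.1% of their bases. Those exons hold 16385 and 18309 bases, against 1205 and 4572 in the canonical transcripts, so the share of counted RNA that overlaps is not known.

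MRPS18A, MRPS18B and MRPS18C are 3 human homologues of 1 bacterial protein, S18. MRPS18A is found in the large subunit, and the other 2 take different places in the small subunit. MRPS18A rose from 53.2 and 50.1 CPM to 64.5 and 63.7 CPM (0.31 ± 0.06, SE; edgeR, FDR = 2.31e-06). MRPS18B, the most abundant of them, had 136.4 and 141.2 CPM in the control and 151.2 and 139.7 CPM in the knockdown, with overlapping groups (0.07, FDR = 0.181). MRPS18C had 13.4 and 13.9 CPM in the control and 10.4 and 12.95 CPM in the knockdown (−0.23 ± 0.10, SE; edgeR, FDR = 0.0492). Its call was lost in 9 alternatives in which the estimated spread was used, among them DESeq2 and both changes of the low-count filter. Over all annotated transcripts, exons of MRPS18A and MRPS18C overlap genes on the opposite strand over 50.9% and 40.2% of their bases.

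A pair of genes was placed in none of these classes. MRPL55 did not pass the threshold. MRPS36, which is now known as a subunit of the 2-oxoglutarate dehydrogenase complex and not of the ribosome, was at 21.5 and 19 CPM in the control and 20.02 and 20.4 CPM in the knockdown (0.00 ± 0.08, SE). Its groups overlapped.

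MRPS24 was the only row that could not be tested. Its counts were 9 and 10 in the control and 10 and 6 in the knockdown. Of its exonic bases, 606 are shared with URGCP-MRPS24, a joint transcript with the upstream gene, and the row of that transcript held 0 counts in all 4 libraries. HTSeq sets reads that fall in exons of more than 1 gene aside as ambiguous, a class that took 0.579% to 0.602% of each file. The part of that class in the low count of MRPS24 was not tested.

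Levels of the genes relative to each other were compared per kilobase of the canonical transcript. In the control, MRPL51 was highest at 162.9 ± 2.89 CPM per kb (SD, n = 2), followed by MRPL18 at 137 ± 0.67 and MRPL20 at 123.4 ± 2.70 CPM per kb (SD, n = 2). These 3 differed by more than their spread. The lowest of the 75 tested genes were MRPL42 at 5.41 ± 0.25 and MRPS11 at 6.80 ± 0.23 CPM per kb (SD, n = 2). The annotated transcripts of MRPL42 and MRPS11 are 15.6 and 3.39 kb long, and shorter transcripts in these cells would place their levels higher. The median was 44.4 CPM per kb in the control and 48.0 CPM per kb in the knockdown. In the control the highest level was 30.1 times that of MRPL42, a ratio that depends on the length taken for MRPL42.

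The order of levels was nearly the same in both groups (Spearman's rho 0.977 over 75 genes, a description across genes of the same 4 libraries). The median gene moved by 2 places. MRPS2 moved from place 9 to 23, MRPL15 from 38 to 48 and MRPL46 from 65 to 56.

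**Figure D4:**
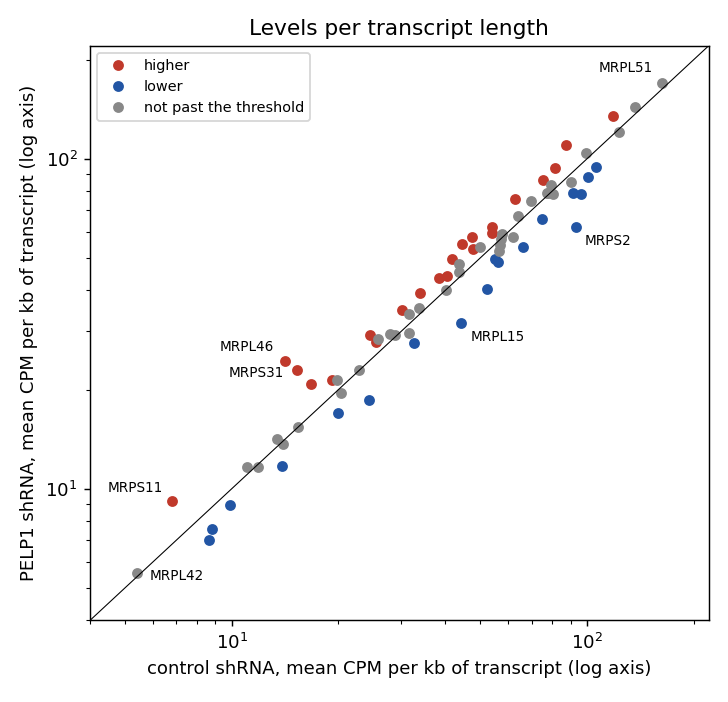
Mean CPM per kilobase of canonical transcript in the PELP1 shRNA libraries against the control libraries for 75 genes, both axes logarithmic, with the line of equal levels and colours by call. Points hug the line over the whole range from 5.41 to 162.9 CPM per kb in the control, with MRPL46 and MRPS31 above it and MRPS2 and MRPL15 below it.

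Promoters of 71 of the 76 genes were found in RefSeq (GRCh38.p14, 250 bases before to 50 after the start) and searched on both strands for 6 motifs. CCGGAAG, the core bound by GABPA and other ETS factors, was present in 39.4% of them, against 18% of the promoters of 11544 tested genes and 10.7% of all 27305 promoters. AANATGGCG, part of the YY1 motif, was present in 26.8%, against 6.42% of tested genes and 3.37% of all promoters. In the 250 bases before the start it was present in 3 of the 71 promoters in place of 19 (4.23%), and in 2.17% of tested genes.

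The other motifs were about as frequent as in tested genes, or less so. The NRF1 motif was present in 9.86% of the 71 promoters against 11.1% of tested genes and 6.28% of all promoters. CACGTG, the E-box, was present in 11.3% against 9.92% and 7.43%. GGGCGG, the GC box of SP1, was present in 60.6% against 68.9% and 44.6%. TGACGTCA, the full CREB site, was present in none of the 71, against 3.15% and 1.98%.

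Of 22 genes that rose, 11 had CCGGAAG in the 300 bases, as did 6 of 17 that fell and 11 of 31 that did not pass. In the 250 bases before the start it was present in 10 of 22, 3 of 17 and 9 of 31. Over all tested genes the share in that shorter window was 14.6% of those higher and 14.5% of those lower. AANATGGCG leaned the other way in the 300 bases, with 5 of 22 that rose, 7 of 17 that fell and 6 of 31 that did not pass. In the 250 bases before the start it was present in 0, 2 and 1 of them. These counts are small and are given as a description.

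For the genes among the 20 with the largest changes that hold CCGGAAG before the start, the match farthest from the start is shown with 10 bases on each side, written on the strand that reads CCGGAAG (GRCh38.p14). Capitals mark every match in the stretch on either strand. MRPS22 and MRPS34 hold 3 matches each in the 300 bases, of which the stretch for MRPS22 covers 2. The first 6 belong to genes that rose and the last to one that fell. MRPL52 and MRPS33, both among the 10 largest falls, also hold 1 match each in the 300 bases, and no stretch is shown for them.
MRPS31 (chr13:40771206-40771232): aggcgccaggCCGGAAGcggaagagag
MRPL33 (chr2:27771701-27771727): gggccgtgccCCGGAAGcagttgttgt
MRPL48 (chr11:73787801-73787827): cattttagttCCGGAAGcttctgaaat
MRPS18A (chr6:43687806-43687832): gcgctacgttCCGGAAGcggaaatgga
MRPS22 (chr3:139343897-139343923): ctataagggcCCGGAAGaCTTCCGGcc
MRPL43 (chr10:100987499-100987525): cgtcccggaaCCGGAAGcctcgaggtt
MRPS34 (chr16:1773189-1773215): tcggtcgcggCCGGAAGcgaggaagag

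Genes that work with this ribosome were read from lists drawn up by function. Of 7 ribosomal proteins under other symbols, 2 rose, 2 fell and 3 did not pass. MRP63, the former symbol of MRPL57, rose from 25.8 and 27.9 CPM to 33.7 and 35.7 CPM, and PTCD3, a small subunit protein at the mRNA entry, stood at 110% of control. GADD45GIP1 and AURKAIP1 fell to 83.9% and 87.4%.

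Of 27 tested factors of ribosome assembly and of RNA modification in mitochondria, 13 fell, 4 rose and 10 missed the threshold (median −0.077). Among all genes tested 29.5% fell and 28.6% rose. RBFA, a maturation factor of the small subunit, fell from 18.4 and 16.7 CPM to 11.4 and 11.7 CPM (−0.60 ± 0.10, SE; edgeR, FDR = 1.36e-07). The GTPase gene GTPBP10, which acts on the large subunit, fell by 0.39 and the methyltransferase gene NSUN4 by 0.34 on the log2 scale. NGRN, needed for the stability of the large ribosomal RNA, rose from 173.7 and 179.4 CPM to 267.2 and 274.3 CPM (0.62 ± 0.04, SE; edgeR, FDR = 8.87e-22). METTL15 and RNMTL1, which methylate the small and the large ribosomal RNA, reached 140% and 117% of control. On the same strand, other genes share 1402 of the 3116 exonic bases of NGRN and 1093 of the 7945 of RBFA.

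Of 21 translation factors and related genes, 5 rose, 6 fell and 10 did not pass (median −0.045). The initiation factor gene MTIF3 rose from 16.9 and 16.2 CPM to 26.6 and 24.4 CPM (0.62 ± 0.08, SE; edgeR, FDR = 1.89e-09). QRSL1, a subunit of the amidotransferase that completes glutaminyl-tRNA, and the elongation factor gene TSFM rose to 132% and 126% of control. TSFM had 45.0 and 46.3 CPM in the control and 62.1 and 52.5 CPM in the knockdown. Of its 3210 exonic bases, 2160 are shared with another gene on the same strand. The recycling factor gene MRRF, the membrane insertase gene OXA1L and the RNA-binding gene SLIRP fell to 80.8%, 84.0% and 87.0%.

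Of 10 genes of mitochondrial DNA transcription and replication, 3 rose, 2 fell and 5 did not pass (median 0.080). TFAM, which packages mitochondrial DNA and starts its transcription, rose from 67.1 and 62.8 CPM to 76.4 and 86.2 CPM (0.32 ± 0.06, SE; edgeR, FDR = 8.33e-07). The polymerase gene POLRMT stood at −0.02 (edgeR, FDR = 0.787) with overlapping groups. The nuclease gene C20orf72 and the helicase gene C10orf2 rose to 125% and 115% of control, and the topoisomerase gene TOP1MT and the DNA polymerase gene POLG fell to 77.1% and 91.0%. C10orf2 starts head to head with MRPL43, with overlapping first exons, and both rose.

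Of 8 regulators of mitochondrial biogenesis, 1 rose, 3 fell and 4 did not pass. The coactivator gene PPRC1 fell from 118.6 and 126.0 CPM to 100.4 and 91.1 CPM (−0.35 ± 0.05, SE; edgeR, FDR = 3.14e-09). GABPB1, the partner subunit of GABPA, fell to 79.0% of control and NRF1 to 82.0%, while GABPA itself (chosen after its values were seen) was at −0.07 (edgeR, FDR = 0.427). PPARGC1A rose from 5.09 and 4.16 CPM to 7.23 and 6.28 CPM.

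For the cytosolic ribosomal protein genes in the same fit, 0 of 75 tested rose and 47 fell (median −0.191), beside 18 lower and 22 higher and a median of 0.057 for the mitochondrial ones. Among all genes tested 28.6% rose and 29.5% fell. Of the cytosolic genes edgeR called 1 higher at an unadjusted p under 0.05, DESeq2 and limma-voom called 0, and library size alone called 6 higher and 34 lower. Alignments that were not unique were left out of the counts of both sets. They took 30.8% and 30.7% of the control files and 29.4% and 29.6% of the knockdown files. How many came from either set was not measured. The difference between the cytosolic and the mitochondrial set was not tested.

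**Figure D5:**
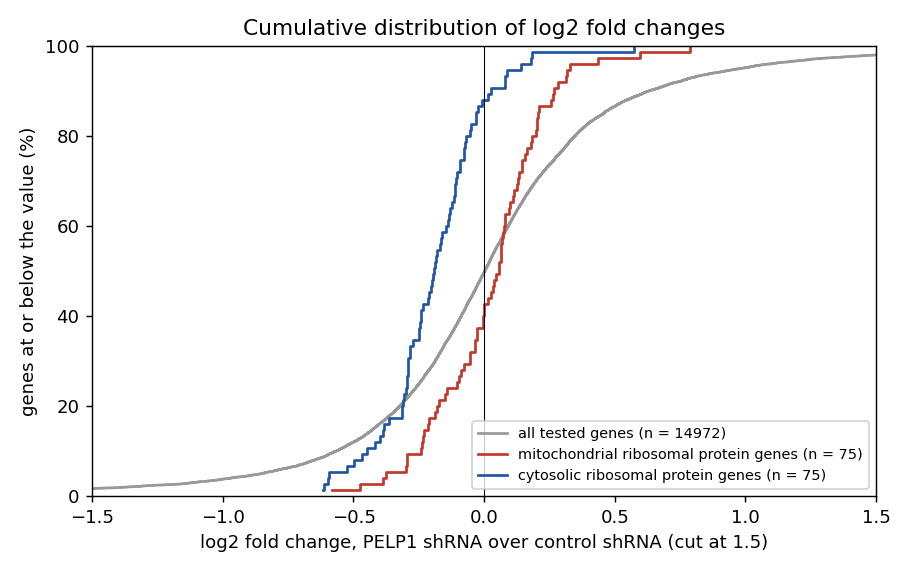
Cumulative share of genes (%) at or below each log2 fold change (PELP1 shRNA over control shRNA, axis cut at 1.5 on each side) for all 14972 tested genes, the 75 mitochondrial and the 75 tested cytosolic ribosomal protein genes. The mitochondrial set, with 30 of 75 genes below 0 against 7445 of all genes, spans −0.58 to 0.79, while the cytosolic set lies to the left, with its median at −0.191.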

How the data were processed

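Total RNA of 4 Daoy libraries was sequenced. The submitters' processing notes name TopHat2 2.0.8b, HTSeq and the build hg19. For HTSeq the version, strand mode and gene models were not given in the sources used here. Each deposited file held raw counts by gene symbol. The 5 rows that name no gene were left out: alignments that were not unique took 29.4% to 30.8% of each file, reads in no gene 8.83% to 9.08% and ambiguous reads 0.579% to 0.602%.

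Groups were compared by quasi-likelihood in edgeR 4.0.16 (R 4.3.3), robust, two-sided, with TMM factors, filterByExpr (14972 genes kept) and the shRNA group as the only term. Benjamini-Hochberg adjustment ran over all genes, with a threshold of 0.05, and glmTreat tested against a 1.5-fold change. Each library counted as a sample. Duplicates differed by more than counting noise (chi-square per degree of freedom 2.469 and 2.374), which does not show that they came from separate cultures. Code was tested on simulated data. Alternatives were 3 scalings, 2 low-count filters, DESeq2 1.42.0, limma-voom (limma 3.58.1), a replicate block, fixed BCV values and each library left out.

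Coordinates, transcript lengths and overlaps came from GENCODE 44 mapped to hg19, and promoters from RefSeq. Starts and exonic overlaps were taken over all annotated transcripts of a gene, which may differ from the gene models counted. Of the 76 members, 41 had some exonic overlap, also where none is given above. Genes of the other lists can overlap others too. The genes and lists were chosen with earlier results of these data known. Genes described by value were, in each direction, the 10 members with the largest change past the threshold and no overlap, the S18 homologues, MRPS30, MRPS36 and the stalk, the 3 highest and lowest per kb, and up to 3 per direction of each other list. Other members appear by call, count or range. Values of MRPS25, MRPS35 and members of gene pairs outside that rule were chosen after they were seen.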

Additional observations from a re-analysis of the deposited data

How the results depend on the processing

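With upper-quartile factors 36 members rose (median log2 fold change 0.110), and with library size alone 40 rose and 11 fell (median 0.147). With a BCV of 10%, 2187 genes were higher and 2176 lower over all genes, and 3 and 4 among the members. With a BCV of 20% the counts were 685 and 640, and 0 and 0 (edgeR likelihood ratio test; at an unadjusted p under 0.05, 2 and 1). The single call against a 1.5-fold change became 0 with DESeq2, limma-voom and both BCV values. With a library left out, 3612 to 3726 genes were higher and 3804 to 4031 lower, 15 to 20 members rose, 14 to 15 fell, and 0 to 1 passed the 1.5-fold test. In all, 22 of the 40 called members (12 higher, 10 lower) kept their call and direction in every scaling, filter, test, block and left-out library tried, fixed BCV values aside. DESeq2 called 17 members higher and 14 lower.

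The deviations of libraries from their group mean, matched between the groups by replicate number, had a correlation of 0.011. With duplicates only, crossing the numbers just turns the sign (−0.011). A summary across genes cannot show whether some genes share an effect of replicate number. GFAP differed between the duplicates in the same direction in both groups. Whether the replicate numbers pair the samples is therefore not known. With the replicate block 20 members rose and 16 fell, and MRPS5, MRPS17, MRPS18C and MRPS25 lost their call.

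Some uncalled genes changed sign. MRPS36 stood at 0 with DESeq2 size factors, at −0.001 with DESeq2 and both BCV values, and between −0.087 and 0.088 with a library left out. With upper-quartile factors and library size alone MRPL53 stood at 0.024 and 0.061 and MRPL20 at 0.017 and 0.054. With a library left out MRPL53 ran from −0.111 to 0.045, MRPL54 from −0.01 to 0.084 and MRPL42 from −0.002 to 0.09.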
